A study of Mus musculus with 28 samples.

Results

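The genes described here were 10 matricellular and matrix glycoprotein genes, *Postn*, *Tnc*, *Tnxb*, *Thbs1*, *Thbs2*, *Thbs3*, *Thbs4*, *Comp*, *Sparc*, and *Fn1*, chosen by symbol among the 56980 genes of the bulk table. Arteriovenous fistulas (AVFs) were created in male and female C57BL/6 mice by sewing the cut end of a jugular vein onto the carotid artery, so that arterial flow entered the vein. All mice, those that gave control vessels included, had undergone a 5/6 nephrectomy, a surgical loss of kidney mass. Controls were contralateral jugular veins, the same kind of vessel on the side without a fistula. Bulk RNA-seq measured single vessels: 7 contralateral veins (5 from female and 2 from male mice), 8 early AVFs (day 3 per the labels, 3 female and 5 male), 5 mid AVFs (day 10, 3 female and 2 male), and 5 late AVFs (day 21, 3 female and 2 male). Single-cell RNA-seq measured 3 libraries, 1 each for the veins and for the early and late fistulas, every one from a pool of 10 vessels of both sexes. The labels give no day for the single-cell pools, and the study's methods give a spread of days around later means than the bulk days, so early and late cover different times in the 2 assays. The methods also give a spread of days within each bulk group, widest in early AVFs. The labelled bulk days are thus nominal, and vessels of a group need not have been harvested on the same day. The labels gave no age.

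Matricellular proteins are secreted into the extracellular matrix but act mainly by binding cells, growth factors, proteases, and other matrix proteins rather than by bearing load. Most are abundant in development, scarce in resting adult tissue, and made again in wounds and remodeling vessels. Thrombospondins 1 and 2 form trimers and bind CD36 and CD47, whereas thrombospondins 3 and 4 and COMP, the fifth thrombospondin, form pentamers and are known from tendon, cartilage, and muscle. Tenascin C is typical of injured tissue and tenascin X, the product of *Tnxb*, of resting connective tissue, periostin helps to cross-link collagen, SPARC binds collagen, and fibronectin is a structural glycoprotein of provisional matrix.

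Annotated positions are those of GENCODE M21 on GRCm38. *Postn* (chromosome 3, 54361109 to 54391037) and *Thbs3* (chromosome 3, 89215180 to 89226837) lay on the plus strand, as did *Tnxb* (chromosome 17, 34670535 to 34719815), *Thbs1* (chromosome 2, 118111876 to 118127133), and *Comp* (chromosome 8, 70373558 to 70382066). *Tnc* (chromosome 4, 63959785 to 64047015), *Thbs2* (chromosome 17, 14665500 to 14694235), *Thbs4* (chromosome 13, 92751590 to 92794818), *Sparc* (chromosome 11, 55394500 to 55423183), and *Fn1* (chromosome 1, 71585520 to 71653200) lay on the minus strand. *Thbs3* shared 318 exonic bases, 6.59% of its exons, with *Mtx1* on the opposite strand. *Thbs1* shared 208 with *Gm29233*, *Fn1* 292 with *Apol7d*, and *Tnc* 176 with *8030451A03Rik*. Whether bulk reads were counted by strand is not given in the sources used here, so reads in these stretches could not be assigned to a strand.

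The promoters of 3 genes that rose in AVFs at every bulk time point (*Postn*, *Tnc*, and *Thbs4*) and of *Tnxb*, which fell in early AVFs, are shown, each as the 250 bases before the RefSeq start (GRCm38.p6), read 5′ to 3′ on the strand of the gene. Capitals mark matches to 3 motifs: the TEAD motif GGAATG and the AP-1 motif TGACTCA on either strand, and the TATA box TATAAA on the strand of the gene. RefSeq held promoters of 7 of the 10 genes, with 2 starts each for *Postn* and *Tnc*, of which the one nearest the annotated gene start is shown. *Thbs1*, *Comp*, and *Fn1* are named only.
*Postn*, chr3:54360857-54361106, plus strand: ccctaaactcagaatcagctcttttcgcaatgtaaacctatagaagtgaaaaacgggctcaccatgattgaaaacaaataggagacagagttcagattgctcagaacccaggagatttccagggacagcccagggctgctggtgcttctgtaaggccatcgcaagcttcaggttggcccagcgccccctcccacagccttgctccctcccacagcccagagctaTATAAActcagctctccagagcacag
*Tnc*, chr4:64047016-64047265, minus strand: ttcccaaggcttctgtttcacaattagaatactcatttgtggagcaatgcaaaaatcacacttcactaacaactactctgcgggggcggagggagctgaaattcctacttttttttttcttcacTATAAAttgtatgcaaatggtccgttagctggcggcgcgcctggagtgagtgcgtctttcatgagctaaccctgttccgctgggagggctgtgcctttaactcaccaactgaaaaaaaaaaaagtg
*Thbs4*, chr13:92794819-92795068, minus strand: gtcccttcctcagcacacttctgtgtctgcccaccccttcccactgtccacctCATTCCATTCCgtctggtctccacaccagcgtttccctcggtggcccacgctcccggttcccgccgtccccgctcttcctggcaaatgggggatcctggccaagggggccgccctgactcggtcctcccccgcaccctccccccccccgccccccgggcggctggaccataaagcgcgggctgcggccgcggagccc
*Tnxb*, chr17:34670285-34670534, plus strand: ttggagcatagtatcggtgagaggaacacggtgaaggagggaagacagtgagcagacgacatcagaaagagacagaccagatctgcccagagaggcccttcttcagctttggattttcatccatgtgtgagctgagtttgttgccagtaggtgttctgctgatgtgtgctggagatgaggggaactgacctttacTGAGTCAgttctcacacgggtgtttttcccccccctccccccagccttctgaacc
A TATA box began 26 bases before the start of *Postn* and 126 before that of *Tnc*. *Thbs4* held 2 overlapping TEAD motifs, beginning 197 and 192 bases before its start, and *Tnxb* an AP-1 motif 55 bases before. In windows of 300 bases, which run 50 bases past the start, 8.32% of 32851 RefSeq promoters held this TATA box, 14.7% the TEAD motif, and 5.2% the AP-1 motif. A palindromic SMAD motif, GTCTAGAC, was found in 0.213% of promoters and in none of those of the 7 genes. Each match is a description of letters, not of a bound site.

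Total counts per bulk library ranged from 20254173 to 67457501. Libraries of contralateral veins were the least alike, with a median Spearman correlation across genes of 0.678, against 0.867 or more within each AVF group. They also had fewer genes with a count, 11958 to 18283 against 17514 to 25141 in early, 25075 to 26168 in mid, and 24529 to 26771 in late AVFs, at total counts that overlapped. This difference runs through every comparison of AVFs with veins, the veins at 0 counts of *Thbs4* or *Comp* included, and its part in them was not tested. Early AVFs 5, 6, and 7 stood apart: their summed CPM of 8 fibroblast markers were 6877, 3516, and 2481, against 13445 to 21980.5 in the other 5 early AVFs and 14275 to 32974 in contralateral veins. Their sums over 5 platelet markers were 9369, 12695, and 2598, against 240.1 to 576 in contralateral veins and 381 to 4108 in the other early AVFs. These vessels are described with and without where they matter. Markers of the vein's own cells were present in all libraries, with smooth muscle sums of 9653 to 21058 CPM and endothelial sums of 2187 to 3685 CPM in contralateral veins. In a vessel, fewer cells of a type and less RNA per cell cannot be told apart.

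Of the 10 genes, 5 rose and 1 fell in AVFs at 1 or more time points. All 10 genes passed the filter on low counts. A gene was called when its absolute log2 fold change (log2 FC) was at least 1 and its adjusted *p* under 0.01, by edgeR's quasi-likelihood test with Benjamini–Hochberg adjustment over 12673 genes. Against contralateral veins, *Postn*, *Tnc*, *Thbs4*, and *Fn1* rose in early, mid, and late AVFs, *Comp* rose in late AVFs, and *Tnxb* fell in early AVFs. Thus 4 of 10 rose in early AVFs where 6.17% of all genes did and 1 of 10 fell where 6.45% did. The counts were 4 higher and 0 lower in mid AVFs (all genes 2.74% and 3.31%), and 5 higher and 0 lower in late AVFs (all genes 2.49% and 2.85%). The median log2 FC of the 10 genes was 0.88 in early, 1.80 in mid, and 1.62 in late fistulas, beside −0.01, −0.10, and −0.09 over all genes. The 3 comparisons share their control veins.

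No gene had early AVFs and contralateral veins apart without overlap (all genes 4.47% higher and 2.34% lower). Every mid AVF lay above every contralateral vein for 5 genes, *Postn*, *Tnc*, *Thbs4*, *Comp*, and *Fn1* (all genes 7.32% higher; 0 lower, all genes 4.69%). The same held in late AVFs for 4, *Postn*, *Thbs4*, *Comp*, and *Fn1* (all genes 6.25% higher; 0 lower, all genes 4.25%). With limma voom and library quality weights in place of edgeR, 0, 1, and 1 of the 10 genes passed in early, mid, and late AVFs, the last 2 being *Fn1*. The share of all genes that passed in the voom fit is not given here. In that fit the log2 FCs of *Thbs4* were 4.06, 5.80, and 6.16, with adjusted *p* of 0.327, 0.159, and 0.141.

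**Figure D1:**
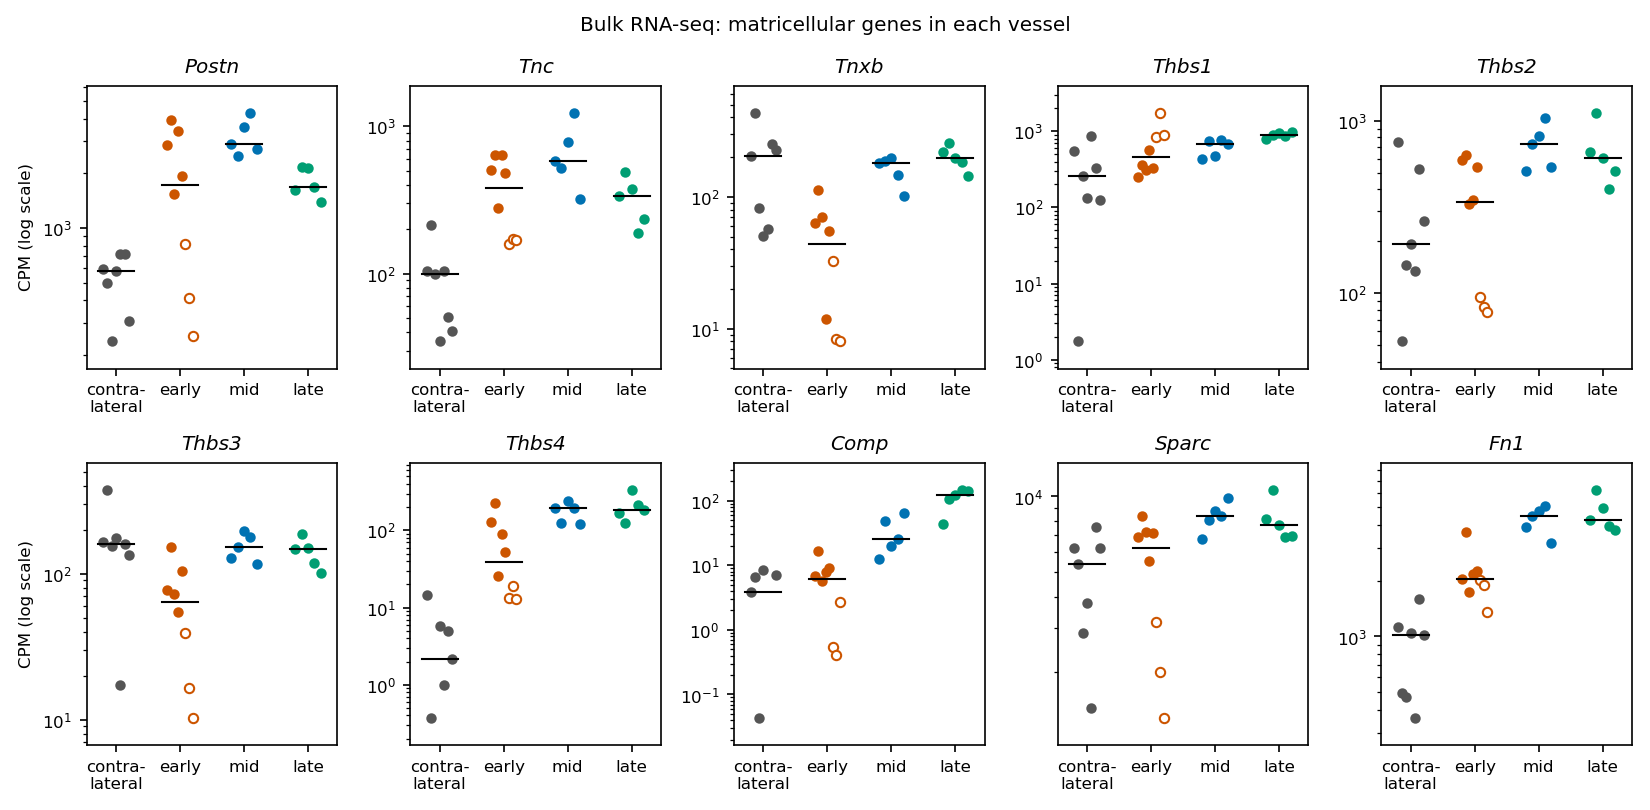
Expression of each gene in every bulk library, in CPM on a log axis, by group. Points are vessels, black lines medians, and open points early AVFs 5, 6, and 7. Values of 0 (*Thbs4* in contralateral vein 31, *Comp* in contralateral veins 35 and 632) cannot be drawn. The open points are the lowest early AVFs for *Postn*, *Tnc*, *Thbs2*, *Thbs3*, *Thbs4*, *Comp*, and *Sparc* and the highest for *Thbs1*.

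*Postn* encodes periostin, a fasciclin-domain protein that binds collagen and promotes its cross-linking. In contralateral veins it ranged from 237 to 718 CPM (median 581), and in early AVFs from 253 to 3932 CPM (median 1729). Early AVFs spread most, and 6 of 8 exceeded every contralateral vein, while early AVFs 6 and 7 (409 and 253 CPM) lay within their range. Mid AVFs held 2505, 2714, 2888, 3598, and 4284 CPM and late AVFs 1385, 1624, 1675, 2129.7, and 2164 CPM. All 10 exceeded every contralateral vein, and every late AVF lay below every mid AVF. The log2 FCs were 1.86 (SE 0.42, adjusted *p* = 0.00189), 2.62 (SE 0.46, adjusted *p* = 0.000321), and 1.78 (SE 0.45, adjusted *p* = 0.00999) in early, mid, and late AVFs. Without early AVFs 5, 6, and 7 the early value was 2.44, adjusted *p* = 7.84e-07. The late *p* lay near the limit, and the call did not pass in 19 of 25 fits that each left out 1 library, among them those without any 1 of the contralateral veins, mid AVFs, or late AVFs, with an adjusted *p* of up to 0.0301. It did not pass either with sex as a term (adjusted *p* = 0.0126).

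*Tnc* encodes tenascin C, a hexameric protein that weakens the adhesion of cells to fibronectin. Contralateral veins ranged from 34.7 to 214 CPM (median 99.7), the highest being vein 28 and the next 104. Early AVFs ranged from 159 to 644 CPM (median 381). Of these, 5 lay above all contralateral veins and early AVFs 5, 6, and 7 (159, 171, and 169 CPM) lay between vein 28 and the other veins. Mid AVFs held 319, 525, 581, 779, and 1226 CPM and late AVFs 189.9, 233, 335, 378, and 491 CPM, of which 1 lay below vein 28. The log2 FCs were 2.04 (SE 0.41, adjusted *p* = 0.000623), 2.89 (SE 0.45, adjusted *p* = 7.94e-05), and 1.81 (SE 0.44, adjusted *p* = 0.00706) at the 3 successive times, and the early one was 2.53, adjusted *p* = 5.89e-05 without early AVFs 5, 6, and 7. At the late time the call did not pass without contralateral vein 34, 35, 632, or 633, mid AVF 13, or late AVF 16, 17, or 19 (adjusted *p* up to 0.0226).

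*Tnxb* encodes tenascin X, which organizes collagen fibrils in resting connective tissue, and fell in early AVFs where *Tnc* rose. It ranged from 50.2 to 430.1 CPM (median 204) in contralateral veins and from 8.04 to 113 CPM (median 44.1) in early AVFs, with 4 of 8 early AVFs below every contralateral vein. Expression fell by 2.03 on the log2 scale (SE 0.50, adjusted *p* = 0.00408). Mid AVFs held 102, 145, 180.5, 188, and 196 CPM and late AVFs 144, 185, 199, 218, and 256 CPM, inside the range of contralateral veins, with log2 FCs of −0.19 (SE 0.56, adjusted *p* = 0.88) and 0.11 (SE 0.56, adjusted *p* = 0.934). The early call was lost without contralateral vein 28, early AVF 3, or early AVF 5 (adjusted *p* up to 0.0147), and without early AVFs 5, 6, and 7 together the log2 FC was −1.49, adjusted *p* = 0.0392. Of the 8 fibroblast markers, 3 were called lower and 0 higher in early AVFs, and their part in the fall of *Tnxb* was not tested. No late AVF was as low as any early AVF, with a log2 FC of 2.14 (SE 0.54, adjusted *p* = 0.0128).

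Among the thrombospondins, *Thbs4* changed most. It was nearly silent in contralateral veins, which ranged from 0 to 14.6 CPM (median 2.14), from 0 to 368 counts. Early AVFs ranged from 12.9 to 229 CPM (median 39.3), and 6 of 8 lay above the highest vein, with the lowest values in early AVFs 7, 5, and 6. Mid AVFs held 119, 126, 197, 198, and 243 CPM and late AVFs 125, 170.2, 185, 211, and 335 CPM, each above every contralateral vein. The log2 FCs were 4.11 (SE 0.82, adjusted *p* = 0.000596), 5.42 (SE 0.91, adjusted *p* = 0.000175), and 5.63 (SE 0.91, adjusted *p* = 0.000163). Without early AVFs 5, 6, and 7 the early value was 4.72, adjusted *p* = 0.000226. The calls were kept in all 25 fits that left out 1 library, with log2 FCs of 3.50 to 4.89 in early, 5.19 to 6.28 in mid, and 5.34 to 6.49 in late fistulas. Skeletal muscle markers also varied. The summed CPM of 6 of them ranged 10.2 to 118 in contralateral veins, 1.06 to 5099 in early, 670.1 to 8232 in mid, and 9.30 to 9882 in late fistulas, and 4 of 6 were called higher at each time point. Their part in the rise of *Thbs4* was not tested.

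*Comp*, best known from cartilage and tendon, was called in late AVFs alone. It ranged from 0 to 8.39 CPM (median 3.80) in contralateral veins, 2 of which had 0 counts, and from 0.407 to 16.4 CPM (median 6.23) in early AVFs. Mid AVFs held 12.6, 19.8, 25.4, 48.0, and 64.2 CPM, all above the veins, and late AVFs 43.5, 105, 121, 139, and 147 CPM, all above the veins and early AVFs and 4 of 5 above every mid AVF. Its log2 FCs were 0.73 (SE 0.91, adjusted *p* = 0.619), 3.20 (SE 1.05, adjusted *p* = 0.0443), and 4.90 (SE 1.12, adjusted *p* = 0.00439). Early AVFs 5, 6, and 7 held 0.549, 0.407, and 2.68 CPM, and without them the early value was 1.37, adjusted *p* = 0.403. Without late AVF 19, or without 23, the late call did not pass (adjusted *p* up to 0.0105). Against early AVFs, the late log2 FC was 4.17 (SE 1.03, adjusted *p* = 0.0117). Beside it, the summed CPM of 8 tendon and cartilage markers ranged 0.499 to 335 in contralateral veins, 3.28 to 247 in early, 166 to 391 in mid, and 254 to 827 in late fistulas. Both values were lowest among late AVFs in late AVF 16 (43.5 CPM of *Comp* and 254 CPM of markers). Among mid AVFs both were lowest in mid AVF 12 and highest in mid AVF 9. Among early AVFs both were lowest in early AVF 6 and highest in early AVF 10. In the veins and at the top of the late AVFs they parted. Contralateral vein 632 held the highest marker sum of the veins (335 CPM) and 0 counts of *Comp*. Contralateral vein 34 held the lowest sum (0.499 CPM) and the most *Comp* (8.39 CPM). Late AVF 23 held the most *Comp* (147 CPM) at a marker sum of 448 CPM, below the late median of 591 CPM. Of these markers, 3 of the 5 tested were called higher in early, 2 in mid, and 3 in late fistulas. Their part in the values of *Comp* and *Thbs4* was not tested.

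*Thbs1* and *Thbs2*, the trimeric thrombospondins, and *Thbs3* were called at no time point. *Thbs1*, an antiangiogenic protein stored in platelets, ranged from 1.75 to 867 CPM (median 259) in contralateral veins and from 249.8 to 1718 CPM (median 461) in early AVFs. The highest early AVFs were 6, 7, and 5 (1718, 895, and 836 CPM), the vessels with the lowest fibroblast marker sums and, in 5 and 6, the highest platelet marker sums. Macrophage markers were higher too, with summed CPM of 8 of them ranging 1747 to 6593 in contralateral veins and 10234 to 30967 in early AVFs. The part of either in *Thbs1* was not tested. The early log2 FC was 1.02 (SE 0.59, adjusted *p* = 0.228), and 0.20, adjusted *p* = 0.899 without these 3. Mid AVFs held 437, 475, 676, 755, and 776 CPM and late AVFs 784, 858, 891, 947, and 965 CPM, every late AVF above every mid AVF. The late AVFs spread little (SD 72.6 CPM) while the veins spread widely (SD 297 CPM). The late log2 FC was 1.45 (SE 0.65, adjusted *p* = 0.156), with a 95% interval of 0.19 to 2.72.

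*Thbs2*, which limits angiogenesis and matrix protease activity, ranged from 52.7 to 755 CPM (median 193) in contralateral veins and from 77.7 to 636 CPM (median 338) in early AVFs, where early AVFs 5, 6, and 7 held 95.3, 83.1, and 77.7 CPM and no other was under 329. The early log2 FC was 0.19 (SE 0.48, adjusted *p* = 0.827), and 0.77, adjusted *p* = 0.279 without these 3. Mid AVFs held 512, 539.6, 729, 818, and 1039.96 CPM and late AVFs 403, 512, 611, 659.7, and 1103 CPM. Both groups overlapped the veins, with log2 FCs of 1.30 (SE 0.54, adjusted *p* = 0.121) in mid and 1.15 (SE 0.54, adjusted *p* = 0.183) in late AVFs. *Thbs3*, the other pentameric member, ranged from 17.2 to 374 CPM (median 158) in contralateral veins and from 10.3 to 153 CPM (median 63.4) in early AVFs, a log2 FC of −1.35 (SE 0.46, adjusted *p* = 0.0326). Without early AVFs 5, 6, and 7 it was −0.80, adjusted *p* = 0.223. Its mid values (116, 128, 152, 177, and 197 CPM) and late values (100.1, 119, 147, 150.1, and 187 CPM) overlapped the veins throughout.

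*Sparc*, a collagen-binding glycoprotein, had the highest level of the group per length of transcript in every bulk group and was called in none. It ranged from 1444 to 7541 CPM (median 5380.1) in contralateral veins, from 1322 to 8397 CPM (median 6234) in early AVFs, from 6771 to 9863 CPM in mid AVFs, and from 6912 to 10626 CPM in late AVFs. The early log2 FC was 0.13 (SE 0.33, adjusted *p* = 0.835), and 0.62, adjusted *p* = 0.129 without early AVFs 5, 6, and 7, which held 3163, 2005, and 1322 CPM. Those of 0.81 (SE 0.37, adjusted *p* = 0.169) in mid and 0.75 (SE 0.37, adjusted *p* = 0.211) in late AVFs were under the fold asked for, with 4 of 5 and 3 of 5 vessels above every vein. *Fn1* ranged from 363 to 1599 CPM (median 1022) in contralateral veins and from 1363 to 3692 CPM (median 2037) in early AVFs, where early AVF 10 stood above the next highest (2263 CPM). Mid AVFs held 3209, 3929.6, 4479, 4798, and 5084 CPM and late AVFs 3761, 3992, 4275, 4940.1, and 6230.1 CPM, all above every vein. Its log2 FCs of 1.30 (SE 0.27, adjusted *p* = 0.000797), 2.30 (SE 0.30, adjusted *p* = 6.33e-06), and 2.41 (SE 0.30, adjusted *p* = 4.22e-06) were kept in all 25 fits that left out 1 library. Against contralateral veins voom called *Fn1* in mid and late AVFs, and gave 1.16, adjusted *p* = 0.0473 in early AVFs. In early AVFs 6 of 8 macrophage markers were called higher, and their part in the rise of *Fn1* was not tested.

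**Figure D2:**
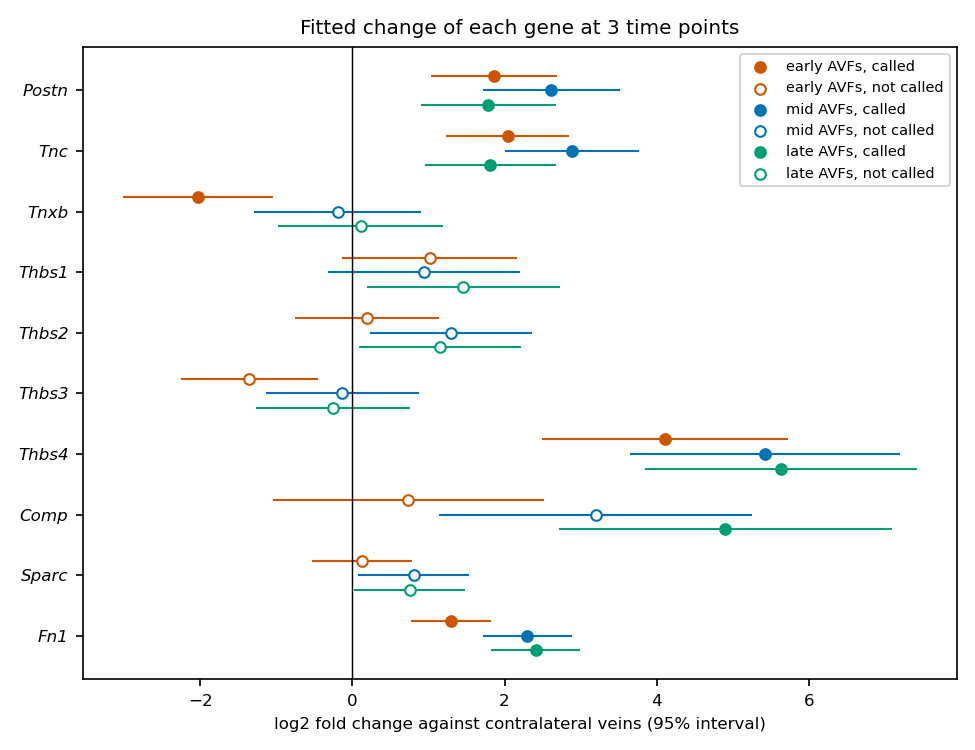
Fitted log2 FCs against contralateral veins in early, mid, and late AVFs, with 95% intervals from edgeR's standard errors. Filled points passed the threshold. *Thbs4* reached 5.63 and *Comp* 4.90 in late AVFs, while *Tnxb* at −2.03 in early AVFs was the 1 called fall.

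To compare genes with one another, CPM were divided by exonic length. On this scale *Sparc* led in contralateral veins with a mean of 1263 CPM per kb, followed by *Fn1* (74.8), *Postn* (59.9), *Thbs1* (53.4), *Thbs2* (42.2), and *Thbs3* (34.9), with *Tnxb* (15.2), *Tnc* (11.9), *Thbs4* (1.25), and *Comp* (1.25) last. In late AVFs the means were 2129.7 for *Sparc*, 397 for *Fn1*, 206 for *Postn*, 146 for *Thbs1*, 93.9 for *Thbs2*, 62.4 for *Thbs4*, 41.9 for *Tnc*, 37.4 for *Comp*, 29.1 for *Thbs3*, and 16.4 for *Tnxb*. Thus *Thbs4* and *Comp* moved from the bottom of the order past *Thbs3* and *Tnxb*.

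Between time points, 0 of the 10 genes were called by edgeR's quasi-likelihood test. All genes called were 0.00789% for mid against early, 3.01% for late against early, and 0% for late against mid AVFs. At an unadjusted *p* under 0.05 there were 5, 4, and 1 of the 10, where 12.7%, 15.9%, and 0.308% of all genes passed. Late against early AVFs came closest, with *Comp*, *Tnxb*, and *Fn1* separated without overlap and adjusted *p* of 0.0117, 0.0128, and 0.0151. The share of all genes so separated was not computed between time points, so nothing is read from that count. *Comp*, *Tnxb*, and *Fn1* were called by DESeq2 (adjusted *p* = 0.000284, 0.00211, and 0.00318) and by edgeR's likelihood ratio test. Voom called 5 genes in mid against early AVFs (*Tnxb*, *Thbs3*, *Thbs4*, *Comp*, and *Fn1*), 5 in late against early (*Tnxb*, *Thbs1*, *Thbs4*, *Comp*, and *Fn1*), and 1, *Comp*, in late against mid, all higher at the later time, while DESeq2 and the likelihood ratio test called 0 in mid against early and late against mid. The shares of all genes called by these other tests are not given here, so their counts are not read as a result about these genes.

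Across the 25 libraries, the pattern most like that of *Thbs4*, by root-mean-square distance of z-scored log2 CPM, was that of *Fn1* (distance 0.333), followed by *Prdm2* and *Cd276*, and that most like *Fn1* was *Thbs4*, followed by *Cd276* and *Tab1*. *Postn* was nearest to *Col5a2* (0.361), a minor fibrillar collagen, *Brinp3*, and *Tnn*, the latter encoding tenascin N. *Tnc* was nearest to *Cthrc1* (0.466), *Tnn*, and *Brinp3*. *Tnxb* was nearest to *Sdc2* (0.329), *Pi16*, a marker of adventitial fibroblasts, and *Col14a1*, and *Thbs3* to *Adamts2* (0.368), *Adgrd1*, and *Col14a1*. *Comp* was nearest to *Lhfp* (0.388), *Acan*, the cartilage proteoglycan aggrecan, and *Col4a1*, and *Sparc* to *Ppic* (0.235), *Col1a1*, and *Col1a2*. *Thbs2* was nearest to *Pamr1* (0.374), *C1qtnf3*, and *Anpep*, and *Thbs1* to *Rbm22* (0.399), *Hacd4*, and *Eaf1*. These libraries share the 4 groups and their depth, and the distances are a description.

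Of 17 other matricellular genes tested in a list of 20, 2 rose and 2 fell in early AVFs (all genes 6.17% and 6.45%), 3 rose and 1 fell in mid AVFs (all genes 2.74% and 3.31%), and 2 rose and 1 fell in late AVFs (all genes 2.49% and 2.85%). *Spp1*, encoding osteopontin, had a mean of 24.2 CPM in the veins and rose without overlap to 5134 at the early time (log2 FC 7.72, SE 0.95, adjusted *p* = 9.84e-07). *Tnn*, at 0 counts in 5 of 7 contralateral veins, rose from 0.103 to 28.8 CPM in early AVFs, with overlap (log2 FC 8.01, SE 1.27, adjusted *p* = 4.03e-05). *Fstl1*, a SPARC-family protein, rose in mid AVFs (log2 FC 1.73, SE 0.38, adjusted *p* = 0.00257). *Smoc2* fell in early AVFs (log2 FC −1.70, SE 0.32, adjusted *p* = 0.000264) and *Igfbp7* at all time points, most in mid AVFs (log2 FC −2.14, SE 0.41, adjusted *p* = 0.000826).

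Of 18 receptors that bind one or more of these proteins, 1 rose and 3 fell in early, 0 rose and 1 fell in mid, and 1 rose and 1 fell in late fistulas. With 1 receptor making up 5.56% of the list, beside the shares of all genes given above, nothing is read from these counts about receptors. *Itga5*, the α subunit of the classical fibronectin receptor, rose in early AVFs (log2 FC 1.84, SE 0.43, adjusted *p* = 0.00247), and *Lrp1*, an endocytic receptor that takes up thrombospondins, in late AVFs (log2 FC 1.20, SE 0.29, adjusted *p* = 0.00762). *Itga8* (log2 FC −2.17, SE 0.39, adjusted *p* = 0.000153) and *Itga9* (log2 FC −1.15, SE 0.29, adjusted *p* = 0.00422), integrin subunits that bind tenascin C among others, fell in early AVFs. *Cd36*, the thrombospondin receptor of endothelium and macrophages, fell at all 3 time points, most in late AVFs (log2 FC −2.09, SE 0.30, adjusted *p* = 2.87e-05). Endothelial marker sums were lower as well, at 336 to 594 CPM in early and 593 to 784 in late AVFs, and smooth muscle sums were 1015 to 2589 and 2199 to 3572 CPM. Their part in these falls was not tested.

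Single-cell libraries were used to find which cells held these transcripts. After filtering, 16893 of 26438 barcodes were kept: 6319 from contralateral veins (median 2751 UMIs), 4753 from early AVFs (median 8951), and 5821 from late AVFs (median 15425). Of these barcodes, 17 occurred in 2 libraries. Clusters were made without the 10 genes and without the markers used for naming, so levels of the 10 genes did not enter them. Fibroblast-like cells numbered 1829 in contralateral veins, 370 in early AVFs, and 1967 in late AVFs, and are called fibroblasts here. All 9 of their markers were detected in each library. They made up 28.9% of contralateral, 7.78% of early, and 33.8% of late barcodes. The early share lay below the range of fibroblast shares that the study reports, so the early class here is narrower than the study's. Most contralateral fibroblasts fell in cluster 2 (1624 of 1829) and most AVF fibroblasts in cluster 0 (366 of 370 early and 1928 of 1967 late). Cluster 6, with 71, 588, and 469 barcodes and a median depth 0.097 times that of their library, was led by *Pth*, the parathyroid hormone gene, had *Postn*, *Col1a1*, and *Col3a1* among its 10 leading genes, and was left unnamed. It made up 1.12% of contralateral, 12.4% of early, and 8.06% of late barcodes. Each condition had 1 library, so no test was made. Levels are UMI CPM, the CPM scale applied to the summed UMIs of a class, and intervals, given at 95%, are exact and cover counting error only.

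In contralateral veins, fibroblasts held most UMIs of 7 of the 10 genes, from 64.6% of those of *Postn* to 94.2% of those of *Tnxb*. The exceptions were *Comp* (16.8%), *Thbs1* (12.4%), and *Tnc* (3.64%). In early AVFs fibroblasts held most UMIs of each gene but *Thbs1* and *Fn1*, and in late AVFs of 9 genes, all but *Thbs1* (38.5%). The median depth of barcodes in cluster 0 was 1.82 and in cluster 2 1.36 times that of their library. Fibroblasts thus held a larger share of all UMIs than of barcodes, and a majority is not read as a trait of these genes.

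**Figure D3:**
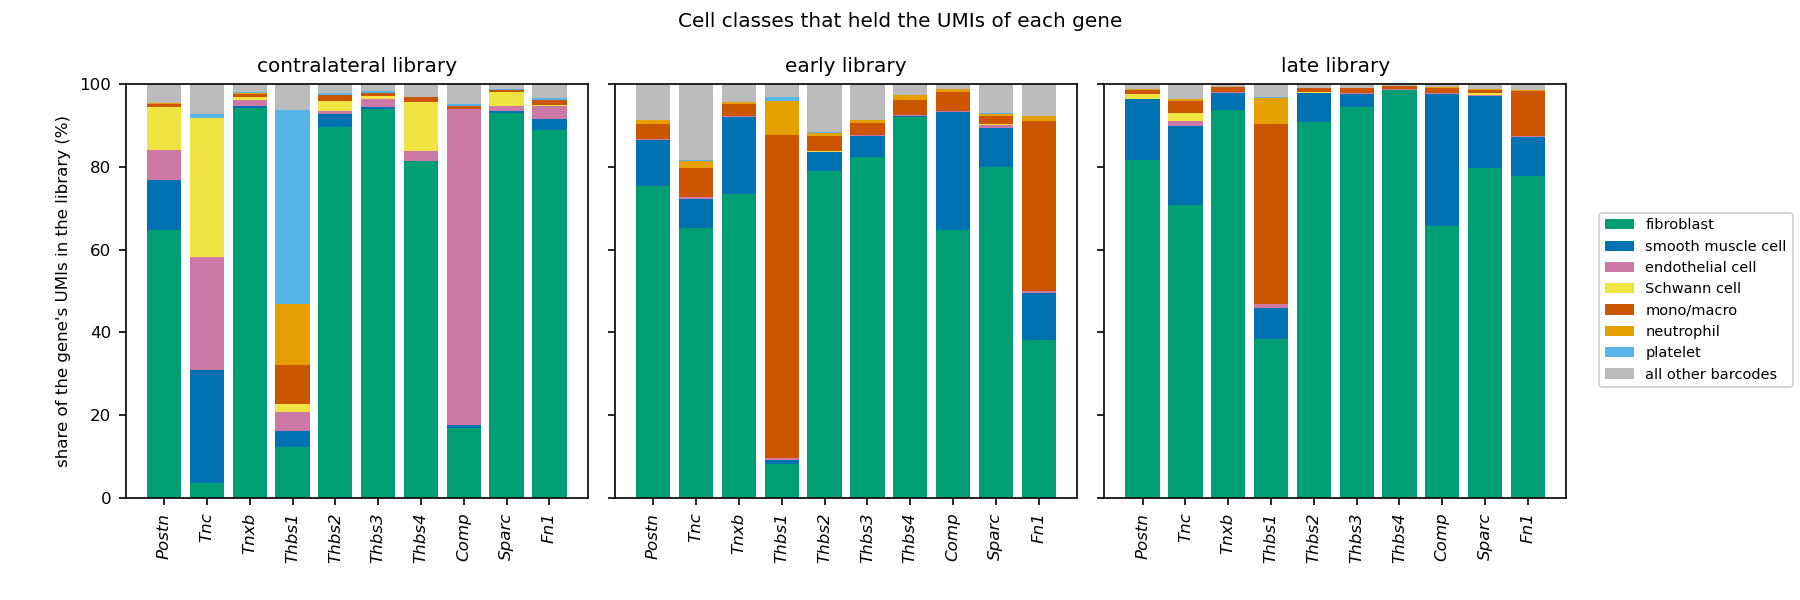
Share of the UMIs of each gene that lay in each cell class, in percent, in the 3 single-cell libraries. Fibroblasts held 98.5% of *Thbs4* UMIs in late AVFs, mono/macros 78.2% of *Thbs1* UMIs in early AVFs, and endothelial cells 76.5% of *Comp* UMIs in contralateral veins.

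Within fibroblasts, 7 of the 10 genes were at least 2-fold higher in early than in contralateral cells, and the same 7 in late cells: *Postn*, *Tnc*, *Thbs1*, *Thbs2*, *Thbs4*, *Comp*, and *Fn1*. Of 12236 genes with at least 100 UMIs summed over the fibroblasts of the 3 libraries, 8.52% were at least 2-fold higher in early and 7.08% in late cells. At least 2-fold lower were 1 of the 10, *Tnxb*, in early cells (all genes 14.9%) and 0 in late cells (all genes 12.1%). Within cluster 0 alone, 7 were at least 2-fold higher in early cells, with *Sparc* in place of *Fn1* (all genes 7.89%), and 5 in late cells, without *Thbs2* and *Fn1* (all genes 5.14%). There, *Tnxb* was again the 1 gene lower in early cells (all genes 14.3%) and 0 were lower in late cells (all genes 10.6%). *Fn1* in cluster 0 was 2630.2 UMI CPM in contralateral, 2982 in early, and 3748 in late cells.

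*Postn* was 82.1 (95% interval 77.2 to 87.2) UMI CPM in contralateral, 3818 (95% interval 3781 to 3855) in early, and 1104 (95% interval 1095 to 1113) in late fibroblasts. The early level was 46.5 (95% interval 43.7 to 49.5) times and the late level 13.4 (95% interval 12.7 to 14.3) times the contralateral one. In cells thinned to 1000 UMIs, 4.17% of contralateral, 79.7% of early, and 45.9% of late fibroblasts had a *Postn* UMI, against 7.93%, 96.8%, and 90.2% before thinning. Outside fibroblasts, *Postn* was 582, 1214, and 791 CPM in smooth muscle cells, above contralateral fibroblasts but below early and late ones, and 2441 (95% interval 2262 to 2629.5) in the 24 Schwann-like cells of late AVFs. Thinning left out 269 contralateral, 0 early, and 1 late fibroblast with fewer UMIs.

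*Tnc* was close to absent from contralateral fibroblasts, with 4 UMIs in 1829 cells or 0.309 (95% interval 0.0843 to 0.792) CPM. It reached 354 (95% interval 343 to 365) CPM in early and 65.5 (95% interval 63.3 to 67.8) in late fibroblasts. In contralateral veins its few UMIs lay instead in Schwann-like cells, at 33.6% (95% interval 24.9% to 43.3%), smooth muscle cells (27.3%), and endothelial cells (27.3%). Fibroblasts held 65.2% in early and 70.9% in late AVFs. In smooth muscle cells *Tnc* was 86.9, 84.1, and 68.9 CPM, with early and late ratios to the contralateral level of 0.968 (95% interval 0.668 to 1.45) and 0.793 (95% interval 0.552 to 1.18). The contralateral smooth muscle class held 35 cells.

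*Tnxb* was lower in AVF fibroblasts, from 809 (95% interval 794 to 825) CPM in contralateral to 269 (95% interval 259 to 279) in early cells, and was 585 (95% interval 578 to 592) in late cells. The shares of thinned fibroblasts with a *Tnxb* UMI were 50.3%, 22.2%, and 40.7%. In smooth muscle cells it was 122, 148, and 100.2 CPM. Thus early fibroblasts held more *Tnc* than *Tnxb* UMIs and contralateral and late fibroblasts the reverse.

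**Figure D4:**
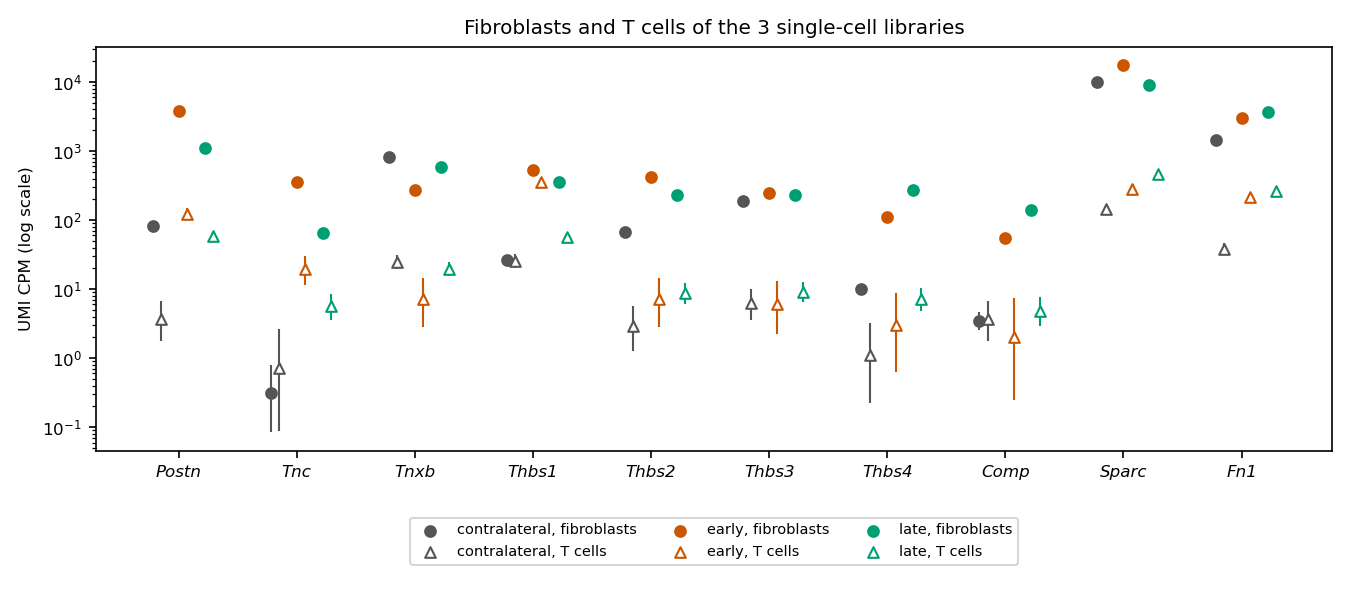
UMI CPM of each gene (log axis) in fibroblasts (circles) and T cells (triangles) of the 3 single-cell libraries, with 95% Poisson intervals. In contralateral fibroblasts *Tnc* and *Comp* were at 0.309 and 3.48 CPM, about the level of T cells, and in AVFs both were above it.

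The pentameric thrombospondins differed among cells. *Thbs4* was 10.1 (95% interval 8.47 to 12.0) CPM in contralateral, 111 (95% interval 105 to 117) in early, and 277 (95% interval 272 to 281) in late fibroblasts, and 2.12 in late smooth muscle cells. It was concentrated in few cells: the 196 late fibroblasts with the highest *Thbs4* level, 10% of the class, held 97.4% of its fibroblast UMIs. Concentration was not particular to *Thbs4*. The 10% highest late fibroblasts for each gene held 88.1% of *Tnc*, 83.6% of *Comp*, and 80.7% of *Thbs1* UMIs. For the remaining genes the share ran from 21.4% (*Tnxb*) to 42.8% (*Postn*), with *Fn1* at 31.4%. The 196 cells highest for *Thbs4* had 2687 CPM of *Postn* against 915 in the other 1771, 313 against 36.0 of *Tnc*, and 375 against 109.7 of *Comp*, but 445 against 602 of *Tnxb*. They also had more of tendon and cartilage markers, 486 CPM summed against 57.8. Among these markers *Tnmd*, encoding the tendon protein tenomodulin, was 89.8 against 2.71 CPM, and *Scx*, the tendon transcription factor scleraxis, 29.3 against 1.27. All 7 markers were higher in the 196 cells. In early fibroblasts the 37 highest cells held 96.7% of *Thbs4* UMIs and 227 CPM of these markers, against 71.8 in the other 333. The cells were ranked by *Thbs4* itself, a range and not a cell type, and whether they came from tissue beside the vessel was not tested.

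The main cell class of *Comp* differed between libraries. In contralateral veins endothelial cells held 76.5% (95% interval 71.0% to 81.4%) of its UMIs, at 68.8 (95% interval 59.7 to 78.9) CPM, and fibroblasts were at 3.48 (95% interval 2.54 to 4.66). In late AVFs fibroblasts held 65.6% and smooth muscle cells 32.0%, at 138 (95% interval 135 to 141) and 266 (95% interval 257 to 275) CPM. Early levels were 55.0 in fibroblasts and 52.4 in smooth muscle cells, so both were higher in the late than in the early library. Late smooth muscle cells held 266 CPM of *Comp* against 2.12 of *Thbs4*, and the 10% highest cells held 91.2% of the former. *Thbs3* in fibroblasts differed by under 2-fold, at 188 (95% interval 180.5 to 196), 248 (95% interval 238 to 257), and 229 (95% interval 225 to 234) CPM, and was less concentrated, with 22.2% of late UMIs in the 10% highest cells.

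*Thbs1* lay mostly outside fibroblasts in every library. In contralateral veins platelet-like barcodes held 46.9% (95% interval 45.1% to 48.8%) of its UMIs, at 2239 (95% interval 2119 to 2363) CPM, and neutrophils, in 61 cells, were at 1974 (95% interval 1787 to 2176). In early AVFs mono/macros held 78.2% (95% interval 77.9% to 78.5%) of its UMIs at 1893 (95% interval 1877 to 1909) CPM, against 77.7 (95% interval 68.6 to 87.6) in contralateral veins, and in late AVFs 43.4% at 909 CPM, beside 38.5% in fibroblasts. Mono/macros made up 10.8% of contralateral, 42.1% of early, and 26.8% of late barcodes, and different clusters held most of them in veins (cluster 11) and AVFs (clusters 1 and 4). In fibroblasts *Thbs1* was 26.7, 523, and 362 CPM. T cells of the early library held 351 CPM, close to its fibroblasts, whereas late T cells held 56.4.

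*Thbs2* in fibroblasts was 66.1 (95% interval 61.8 to 70.7) CPM in contralateral, 422 (95% interval 410.1 to 435) in early, and 234 (95% interval 229 to 238) in late cells, and in smooth muscle cells 86.9, 52.2, and 71.1. *Sparc* was 10108, 17344, and 9026 CPM in fibroblasts, under 2-fold apart, and 1978, 4450.4, and 7818 in smooth muscle cells, a late ratio of 3.95 (95% interval 3.67 to 4.27). *Fn1* was 1426, 2977, and 3732 CPM in fibroblasts and 1572, 1957, and 1739 in smooth muscle cells. It was also 66.1, 1221, and 1171 CPM in mono/macros, which held 41.2% (95% interval 40.9% to 41.6%) of its early UMIs, slightly more than fibroblasts (38.1%). The 685 unnamed early barcodes held 5863 of the 83429 early *Fn1* UMIs and were counted in neither class.

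**Figure D5:**
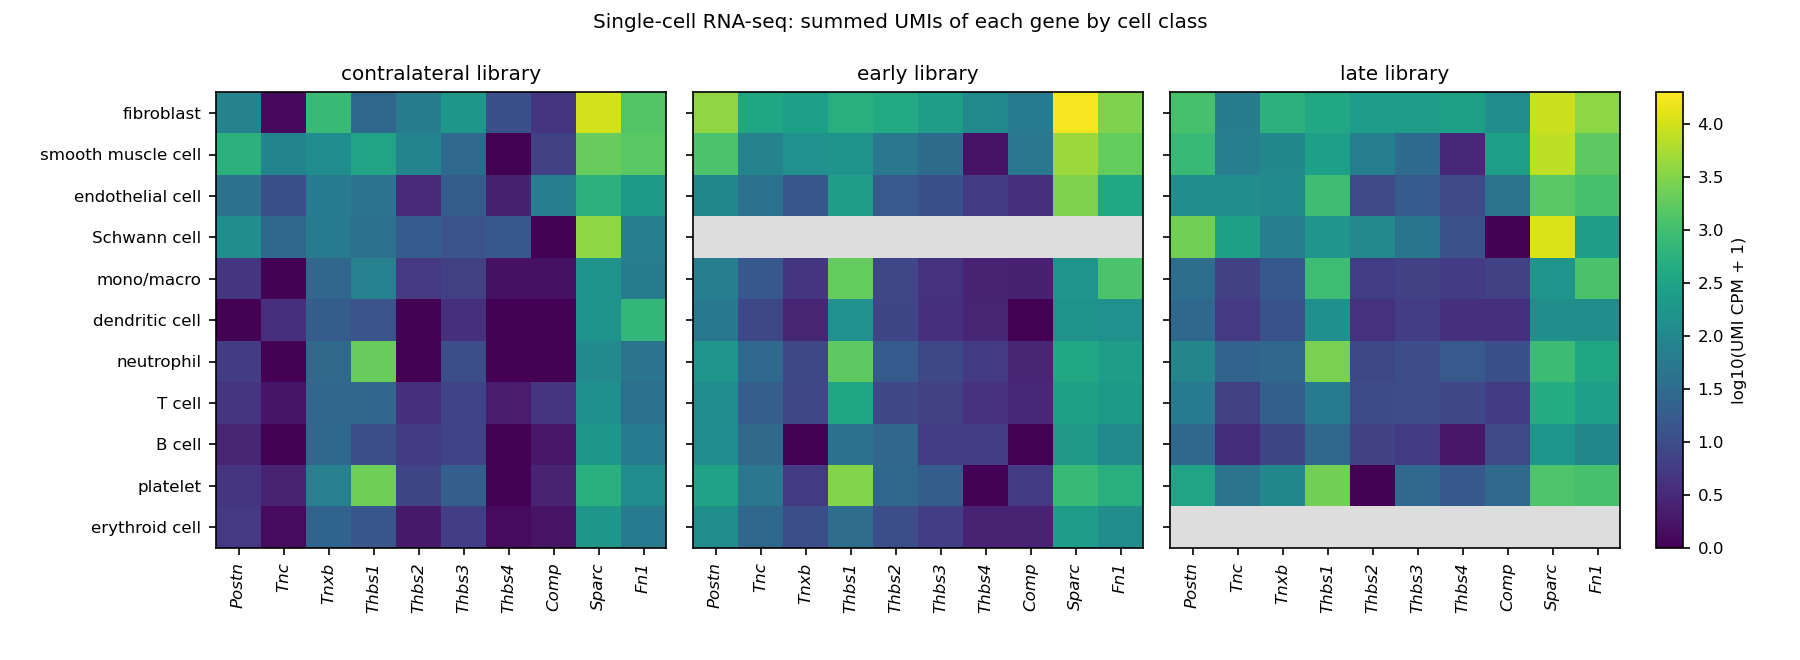
UMIs of each gene by cell class in the 3 single-cell libraries, as log10(UMI CPM + 1); grey marks classes with under 20 cells in a library. Fibroblasts and smooth muscle cells lead for *Fn1* in all 3 libraries, the late Schwann-like cells lead for *Postn* (2441 CPM) and *Sparc* (11450.5 CPM), and *Thbs1* is brightest in platelets and neutrophils, with mono/macros between them in early AVFs.

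UMIs in cells that should lack a gene set a floor under these values. Whether such UMIs came from free RNA, doublets, or misplaced barcodes was not tested. T cells, which should lack *Postn*, held 3.65, 123, and 58.5 CPM of it, and 15.6% of thinned early T cells (median 5369 UMIs before thinning) had a *Postn* UMI, against 79.7% of early fibroblasts (median 32402). The early fibroblast level exceeded that of T cells for all 10 genes, by least for *Thbs1* (523 against 351 CPM), and next least for *Fn1* (2977 against 217). In contralateral veins the fibroblast levels of *Tnc*, *Thbs1*, and *Comp* did not exceed those of T cells by more than counting error. Mono/macros were below T cells for *Postn* (68.3 CPM), *Sparc*, and *Tnc* in early AVFs, so these levels are not read as expression by mono/macros. In cluster 0, which held fibroblasts of all 3 libraries (205, 366, and 1928 cells), *Postn* was 327, 3826, and 1110.01 CPM, *Thbs4* 8.06, 111, and 279, and *Comp* 6.05, 55.0, and 138, so the order of the libraries for these 3 genes was the same within a shared cluster. In contralateral fibroblasts, erythroid markers summed to 15693 CPM, against 587 in early and 2.52 in late ones.

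The receptors named above differed in the cells that held them. *Cd36* was 839 CPM in contralateral endothelial cells and 886 in contralateral mono/macros, against 6.80 in fibroblasts. In late AVFs it was 91.7 in endothelial cells and 375 in mono/macros. *Itga8* was 426, 1232, and 1147 CPM in smooth muscle cells and 8.19 in late fibroblasts. *Lrp1* was highest in fibroblasts in all 3 libraries, at 744, 588, and 709 CPM. *Itga5* was 172 in late smooth muscle cells, 125 in mono/macros, 123 in endothelial cells, and 55.6 in fibroblasts. Of the related ligands, *Spp1* was 3226 CPM in early mono/macros and *Tnn* 30.5 in early fibroblasts.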

How the data were processed

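Bulk RNA-seq of single vessels and single-cell RNA-seq of pooled vessels were analyzed from the read counts per gene and the UMI counts per gene and barcode deposited by the authors. The submitters' processing notes list STAR, Cell Ranger, and the mouse genome mm10 (GRCm38). For the bulk table, the counting program and gene annotation are not named by any source used here. Counts were fitted with edgeR 4.0.16 in R 4.3.3 over all 4 groups (TMM scaling, quasi-likelihood test, Benjamini–Hochberg adjustment) for genes with a mean normalized count of at least 100, leaving 12673 of 56980. CPM are counts scaled to library size after TMM. The SE of a log2 FC was its absolute value divided by the square root of the F statistic of the quasi-likelihood test. Bulk IDs were named from the single-cell gene list and a reference table. The genes, lists, and tests were chosen with earlier results of these data known. All 10 genes were named in every comparison, with up to 4 called genes per direction from each list and the 3 nearest patterns per gene. Replicates were separate mice in bulk.

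Barcodes were kept with 200 to 6000 genes detected and no more than 10% of UMIs from mitochondrial genes. Counts were clustered with scanpy 1.11.5 (2000 variable genes, 12 components, 20 neighbors, Leiden resolution 0.5) without the 10 genes and the naming markers. Clusters were named when at least 3 markers of a class were raised, and a low-UMI cluster only with 3 markers among its 10 leading genes, a condition set after seeing the data. Scrublet marked 0, 2, and 120 barcodes as doublets in contralateral, early, and late libraries, so it did not work in the first 2, and none were removed. Alternatives were DESeq2 1.42.0, limma voom 3.58.1, other filters, thresholds and samples, and other cell filters and resolutions.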

Additional observations from a re-analysis of the deposited data

Results flagged for a closer look

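Among 40 groups of values (10 genes in 4 bulk groups), 4 held a library far from the others by Dixon's test at 95%, where chance flags about 1 in 20 groups of normally distributed values. The test used CPM without a log, whose distribution was not checked, and all 4 flags were at the high end, so that rate may not hold. *Tnc* was 214 CPM in contralateral vein 28, against 104 in the next highest vein. *Thbs4* was 14.6 CPM in contralateral vein 27, against 5.80 in the next highest. *Thbs1* was 1718 CPM in early AVF 6, against 895 in the next highest early AVF. *Fn1* was 3692 CPM in early AVF 10, against 2263 in the next highest.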

How the results depend on the processing

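Each bulk comparison was refitted without each of the 25 libraries in turn and under other settings, and no member changed direction past the threshold. With 1 library left out, the number of members called against contralateral veins lay between 4 and 6 in early, at 4 in mid, and between 2 and 5 in late AVFs. The late count was 3 without contralateral vein 34, 35, 632, or 633, mid AVF 13, or late AVF 16, 17, or 23, and 2 without late AVF 19, against 5 with all libraries. For late against early AVFs it lay between 0 and 3, with 2 members called without contralateral vein 28, 31, 35, or 632, 1 without 34, and 3 without early AVF 10, and it stayed at 0 for mid against early and late against mid AVFs. Limma voom with quality weights called 0, 1, and 1 members against contralateral veins in early, mid, and late AVFs, and 5 in mid against early, 5 in late against early, and 1 in late against mid AVFs. Fits of only the 2 groups compared called 1 member in early and 3 in late AVFs and 2 in late against early AVFs. Sex was unbalanced, with 5 of 7 veins from female and 5 of 8 early AVFs from male mice. With sex as a term 5, 4, and 4 members were called against contralateral veins, the late *Postn* call being lost, and female mice alone gave 0, 2, and 1. Male mice alone were not fitted. DESeq2 and edgeR's likelihood ratio test called 3 in late against early AVFs, as did an adjusted *p* under 0.05, which also called 1 in mid against early. Against contralateral veins, the limit of 0.05 added *Thbs3* as lower in early AVFs and *Comp* as higher in mid AVFs. The cause of these differences was not tested. Shares of all genes called in these refits are not given here, so no change in a count is read as particular to the members. DESeq2 size factors, filterByExpr, and no filter left every count as it was. Without early AVFs 5, 6, and 7, an alternative chosen after seeing the data, 4 members were called in early AVFs, *Tnxb* being lost. No paired analysis was possible because the groups share no replicate numbers. In fibroblasts, 7 members were at least 2-fold higher in early and late cells under the other filters, resolution, variable genes, and thinning tried, and 6 in early cells with the low-UMI cluster 6 counted in, and 7 and 5 in early and late cells of cluster 0 alone, both also chosen after seeing the data. Of 180 fibroblast levels recomputed, 114 stayed within their counting interval. The single-cell data held 1 library per condition, so their spread between vessels is unknown.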
